A study of Mus musculus with 3 samples.

Results

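The 10 genes of sugar breakdown and of the response to low oxygen described here are among 20738 genes measured in jejunum of mice lacking Sox4 in the gut epithelium. They are 8 glycolytic enzyme genes (Hk2, Pfkl, Aldoa, Tpi1, Gapdh, Pgk1, Eno1 and Ldha) and 2 further genes known for their response to hypoxia (Bnip3 and Vegfa). They were chosen by name, with earlier results of these data known. All 10 were found by gene symbol in the array annotation, on 24 array features. Each of 3 two-colour arrays compared RNA of whole proximal jejunum from a different mouse with the label Sox4 vilCre KO (a Sox4 knockout made with villin-Cre, a recombinase driven in the intestinal epithelium), in Cy5, with RNA of wild-type whole proximal jejunum, in Cy3. The labels used here do not give the age or sex of the mice, nor whether wild-type RNA came from single or pooled mice, and no array had the dyes swapped. The tissue is the whole gut wall, so it also holds muscle, vessels, blood, nerves and immune cells, which lie outside the reach of villin-Cre.

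Glycolysis splits glucose into pyruvate in the cytosol, and lactate dehydrogenase turns pyruvate into lactate so that the pathway can go on without oxygen. When oxygen is short, the hypoxia-inducible factors HIF-1 and HIF-2 escape degradation and bind the core motif ACGTG or GCGTG near target genes, among which are most of the glycolytic enzymes, Bnip3 (a mitochondrial outer membrane protein that marks mitochondria for removal by autophagy) and Vegfa (the growth factor that drives blood vessel growth). In the intestine, oxygen falls steeply across the epithelium towards the lumen, and HIF signalling is known as part of its barrier function.

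Values are given as the log2 ratio, knockout over wild type, on each array, with the SD over n = 3 arrays, so that 0 is the wild-type level. Base 2 and this direction are the reading taken from the dyes in the labels and from the size of the values, which the deposited table does not state, and under a natural logarithm each fold would be larger. A ratio carries no level, so the amount of each RNA, the signal over background and the identity of the tissue could not be checked from marker levels. In whole tissue, fewer cells of a type and less RNA per cell cannot be told apart. The median ratio of all genes was -0.026, -0.032 and -0.001 on arrays 1, 2 and 3. The deleted gene itself was a weak check of the labels. Sox4 had ratios of -0.66, 0.18 and -0.46 on arrays 1, 2 and 3, the mean of 3 features, with an adjusted p of 0.332. Its features disagreed, since feature 53932 lay below wild type on every array (-1.21, -0.72 and -0.93), feature 35668 had -0.82, 0.03 and -0.43, and feature 32792 had 0.06, 1.23 and -0.02. The mean of the Sox4 features on array 2 thus lay above wild type through feature 32792, while feature 53932 lay below it there, and values without array 2 are given where they differ.

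Promoters of several enzyme genes and of Bnip3 hold the HIF core motif, and those of the gene with the highest ratio (Eno1), of the gene with the lowest (Bnip3) and of 2 long-known HIF-1 targets (Pgk1 and Ldha) are shown for this reason. Each is the 250 bases before the most upstream start of the gene in RefSeq, build GRCm38.p6, written in the direction of the gene. Capitals mark ACGTG or GCGTG on either strand, and the palindrome CACGTG, an E-box that holds ACGTG on both strands, counts as 1 site.
Eno1, chr4:150236458-150236707, plus strand: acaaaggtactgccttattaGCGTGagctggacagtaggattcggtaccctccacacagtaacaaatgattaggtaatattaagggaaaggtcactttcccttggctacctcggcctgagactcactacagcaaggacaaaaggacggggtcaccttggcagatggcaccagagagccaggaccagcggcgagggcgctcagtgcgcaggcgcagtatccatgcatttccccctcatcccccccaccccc
Pgk1, chrX:106186850-106187099, plus strand: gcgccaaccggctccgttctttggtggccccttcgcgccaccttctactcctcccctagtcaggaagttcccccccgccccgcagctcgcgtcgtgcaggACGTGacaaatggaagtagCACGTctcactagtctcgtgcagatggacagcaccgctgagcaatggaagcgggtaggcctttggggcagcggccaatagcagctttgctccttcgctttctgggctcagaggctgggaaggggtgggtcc
Ldha, chr7:46845554-46845803, plus strand: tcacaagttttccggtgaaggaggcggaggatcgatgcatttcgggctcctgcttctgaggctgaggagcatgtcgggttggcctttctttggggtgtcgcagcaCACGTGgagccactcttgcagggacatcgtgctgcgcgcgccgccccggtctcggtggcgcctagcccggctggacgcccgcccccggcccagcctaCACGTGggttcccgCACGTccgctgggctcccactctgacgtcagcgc
Bnip3, chr7:138909507-138909756, minus strand: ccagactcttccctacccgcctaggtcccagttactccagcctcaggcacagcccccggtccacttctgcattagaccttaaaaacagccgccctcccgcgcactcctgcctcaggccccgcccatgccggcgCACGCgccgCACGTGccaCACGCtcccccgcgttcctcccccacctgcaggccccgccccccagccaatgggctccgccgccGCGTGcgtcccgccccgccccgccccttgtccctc

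Bnip3 had 4 sites in this window, the farthest 117 and the nearest 35 bases before its start. Ldha had 3 sites, 2 of them CACGTG, Pgk1 had 2 and Eno1 had 1, at 230 bases before its start. Of the 10 genes, 7 had at least 1 site. Hk2 and Gapdh had 2 sites each, Pfkl had 1, and these letters were not in the windows of Aldoa, Tpi1 and Vegfa. Of the windows of 27025 genes searched in the same way, 38.6% held a site. The 7 windows with a site held 8 to 25 CG pairs, where the median window held 6, and of all windows with at least 8 CG pairs 62.4% held a site.

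The glycolytic enzymes mostly lay above wild type and Bnip3 lay below it, while Vegfa lay close to wild type. No gene of the 10 passed limma's test at an adjusted p of 0.05, which 0.328% of all genes did. At an unadjusted p under 0.05 there were 6 of the 10, where 26.3% of all genes had such a p. These were 5 above wild type (Eno1, Pgk1, Tpi1, Gapdh and Pfkl), where 12.0% of all genes were, and 1 below it (Bnip3), where 14.3% of all genes were. Ratios were above 0 on all 3 arrays for 7 of the 10 genes, against 23.2% of all genes, and below 0 on all 3 for Bnip3 alone among them, against 27.3% of all genes. Hk2 and Aldoa had ratios of both signs. Since the 10 were chosen with earlier results of these data known, these counts are no test of them as a group.

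**Figure D1:**
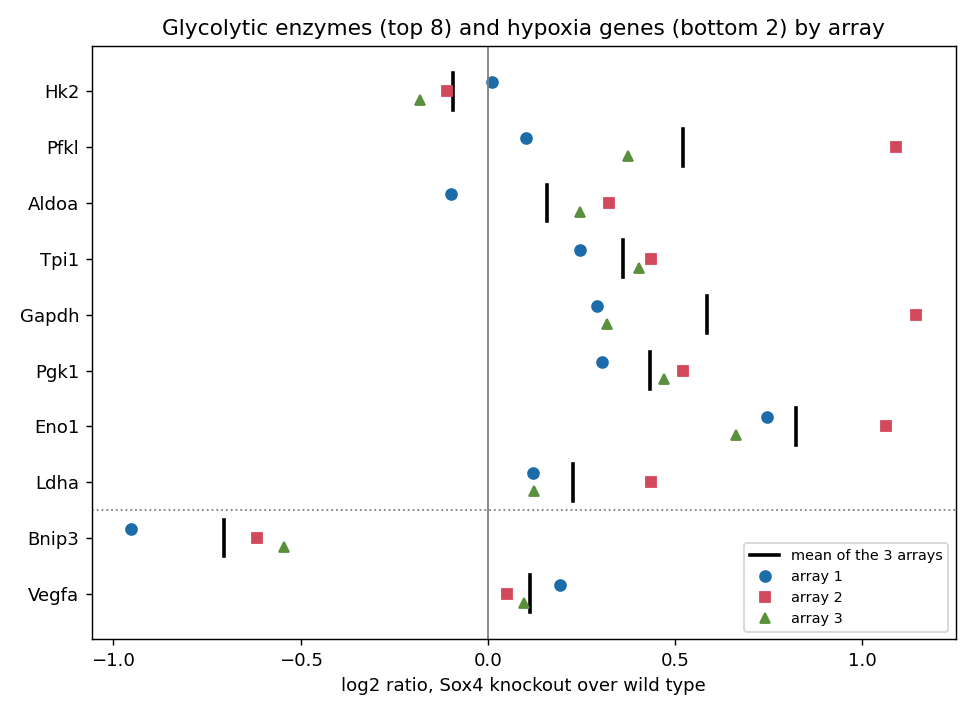
Log2 ratio of Sox4 knockout over wild type (x axis) for each of the 10 genes (rows, enzymes in the order of the pathway), with 1 symbol for each of the 3 arrays and a bar at their mean. Eno1 has the highest mean (0.82), Bnip3 lies below 0 on every array, and array 2 is the highest for 7 of the 8 enzymes.

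The first steps of glycolysis trap and prime glucose. Hk2, the hexokinase that phosphorylates glucose and can bind mitochondria, had ratios of 0.01, -0.11 and -0.18 on arrays 1, 2 and 3 and a mean of -0.09 ± 0.10 (adjusted p = 0.625). It was the lowest of the 8 enzymes, and its array values lay on both sides of wild type. Pfkl, the liver-type subunit of phosphofructokinase, the committed step of the pathway, had 0.10, 1.09 and 0.37. All were above wild type but they were far apart, with a mean of 0.52 ± 0.51 (adjusted p = 0.189), and without array 2 the mean was 0.24.

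The middle steps cut the primed sugar and interconvert the pieces. Aldoa, the aldolase that makes the cut, had -0.10, 0.32 and 0.25, with a mean of 0.16 ± 0.22 (adjusted p = 0.481). Arrays 2 and 3 were above wild type and array 1 was below. Tpi1, triosephosphate isomerase, had 0.25, 0.43 and 0.40, with a mean of 0.36 ± 0.10 (adjusted p = 0.133). Its arrays lay close together, but its 2 features did not agree in size, since feature 26444 averaged 0.59 ± 0.08 and feature 49064 averaged 0.13 ± 0.14.

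The later steps recover energy as NADH and ATP. Gapdh, the dehydrogenase of glyceraldehyde 3-phosphate and a common reference gene, had 0.29, 1.14 and 0.32, with a mean of 0.58 ± 0.48 (adjusted p = 0.150). Array 2 was far above the other arrays, and without it the mean was 0.31. The 8 Gapdh features had means that ran between 0.11 and 1.16, and array 2 was the highest of the 3 on each of the 8 features. The array medians of 10 other reference genes were 0.33, 0.11 and 0.17, with array 1 and not array 2 the highest.

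Pgk1, phosphoglycerate kinase and an X-linked gene, had 0.31, 0.52 and 0.47, with a mean of 0.43 ± 0.11 (adjusted p = 0.104). The 3 values were close together and all above wild type. The sex-linked genes also differed on these arrays, since Xist, the RNA of the inactive X chromosome, had a mean of 1.71 ± 0.18 (adjusted p = 0.0208) and the Y-linked Eif2s3y had -7.28 ± 0.25 (adjusted p = 0.000252). Xist did not pass without array 1 (adjusted p = 0.167) or without array 3 (adjusted p = 0.174). The Y-linked Uty and Kdm5d averaged -3.05 ± 0.91 (adjusted p = 0.0494) and -1.11 ± 0.41 (adjusted p = 0.0640). Xist lay above 0 and the 3 Y-linked genes below 0 on every array, the direction of female knockout against male wild-type RNA. A difference in sex therefore cannot be told apart from genotype here. Whether sex has a part in the ratios of Pgk1 or of any of the 10 genes was not tested.

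Eno1, the enolase found in most tissues, had the highest ratio of the 10. Its values were 0.75, 1.06 and 0.66 on arrays 1, 2 and 3, all above wild type. The mean was 0.82 ± 0.21 (1.77-fold, 95% interval 0.50 to 1.15, adjusted p = 0.0640), and 1.21% of all genes had a mean at least as high. It rested on 1 feature. Ldha, which makes lactate, had 0.12, 0.44 and 0.12, with a mean of 0.23 ± 0.18 (adjusted p = 0.298). Of its 3 features, 54532 and 9378 were above wild type on every array (means of 0.48 ± 0.31 and 0.32 ± 0.20), while feature 1261 had -0.03, 0.27 and -0.61.

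**Figure D2:**
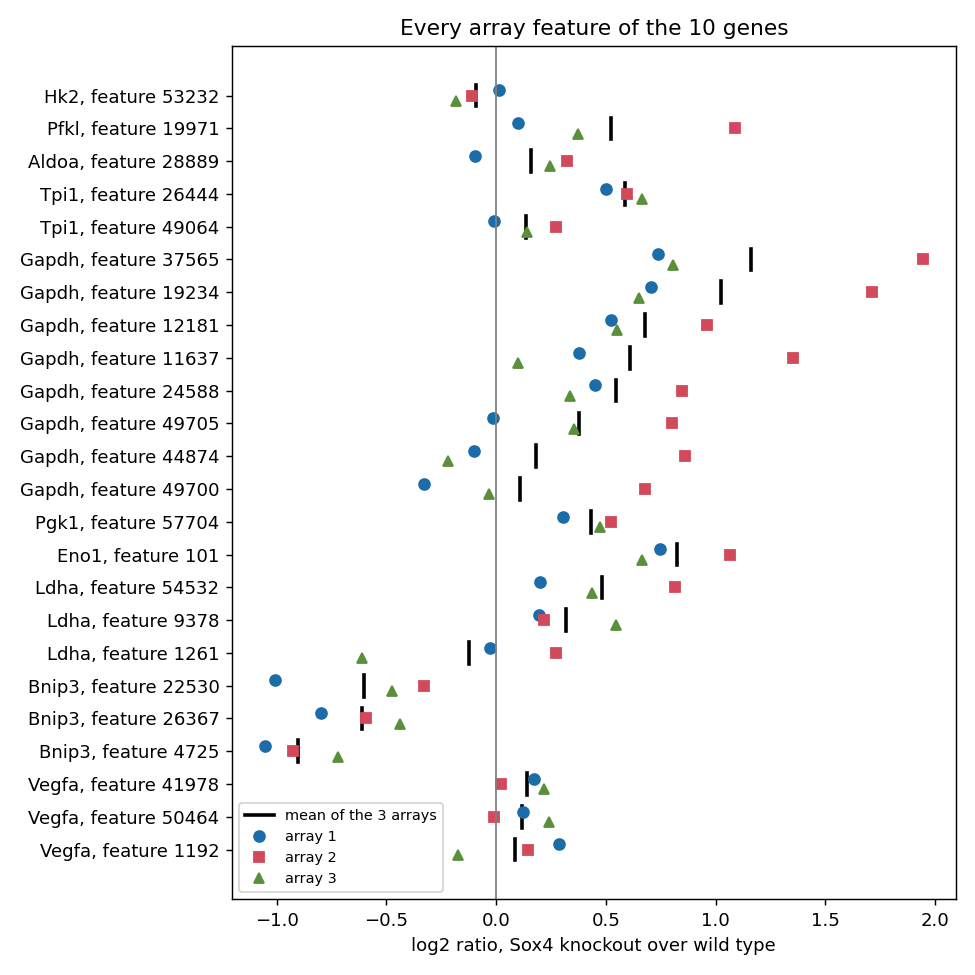
Log2 ratio of Sox4 knockout over wild type (x axis) for each of the 24 array features of the 10 genes (rows), with 1 symbol for each array and a bar at the mean. The 3 Bnip3 features lie below 0 on every array, and the 8 Gapdh features have means between 0.11 and 1.16.

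Of the 2 hypoxia genes outside glycolysis, Bnip3 had ratios of -0.95, -0.62 and -0.55 on arrays 1, 2 and 3. Every array was below wild type, on each of its 3 features, whose means were -0.90 ± 0.17, -0.61 ± 0.18 and -0.60 ± 0.36. The gene's mean was -0.70 ± 0.22 (1.63-fold lower, 95% interval -1.03 to -0.37, adjusted p = 0.0715), and 3.03% of all genes had a mean at least as low. Vegfa had 0.19, 0.05 and 0.10, with a mean of 0.11 ± 0.07 (adjusted p = 0.540) and an interval of -0.16 to 0.39. Its 3 features averaged 0.08, 0.12 and 0.14. The upper end of Bnip3's interval lies below the lower end of Vegfa's, although the difference between these genes was not tested.

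Set against each other, the mean of the 8 enzymes lay above the mean of the 2 hypoxia genes on every array. The mean of the 8 enzymes was 0.22, 0.61 and 0.30 on arrays 1, 2 and 3 (0.38 ± 0.21), and the mean of Bnip3 and Vegfa was -0.38, -0.28 and -0.22 (-0.30 ± 0.08). Their difference was 0.60, 0.90 and 0.53 (0.67 ± 0.20), and no test was made of a score over chosen genes. Within the pair, Bnip3 lay farther below the enzyme mean than Vegfa did. The enzyme mean minus Bnip3 gave 1.17, 1.23 and 0.85, while the enzyme mean minus Vegfa gave 0.02, 0.56 and 0.21. On array 1 the median of the 8 enzymes was 0.18, below Vegfa at 0.19.

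Array 2 was the highest of the 3 arrays for 7 of the 8 enzymes, all but Hk2, where it was the highest for 33.9% of all genes. Smooth muscle markers did the same on 7 of 8 genes, with array medians of -0.34, 0.35 and -0.44, and endothelial markers on 5 of 8, with -0.35, 0.11 and -0.08. Markers of dividing cells did so on none of 9 genes, with medians of 0.64, 0.34 and 0.58, all above wild type as the mean of the 8 enzymes was. Leukocyte markers had medians of 0.12, 0.33 and 0.07, with array 2 the highest on 5 of 8 genes. Enterocyte markers had 0.20, 0.14 and -0.12, with array 2 the highest on 6 of 12 genes. Of these 12, 5 were above 0 on all arrays, against 23.2% of all genes, and 2 below, against 27.3%. Their means ran between -0.47 and 0.83. The highest was Anpep at 0.83 ± 0.15 (adjusted p = 0.0625). Vil1, an actin-bundling protein of the brush border whose promoter drives the recombinase, averaged 0.48 ± 0.14 (adjusted p = 0.0931). The part of these cell types in the enzyme ratios was not tested. Without array 2 the mean of the 8 enzymes was 0.26, and that of Bnip3 and Vegfa was -0.30.

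Isozymes of the same steps were split in direction. Of 17 isozyme genes listed, 15 were measured, with a median of -0.03 and none past the adjusted threshold. Of these, 6 were above 0 on all arrays, against 23.2% of all genes, and 6 below, against 27.3%. Among the enolases, Eno1b, a gene nearly identical to Eno1, had 0.43, 1.05 and 0.47 (0.65 ± 0.35, adjusted p = 0.0956), and RNA of either copy may reach features of the other. Eno3, the muscle enolase, had -0.53, -0.79 and -0.77 (-0.70 ± 0.14, adjusted p = 0.0667), and its values lay below every Eno1 value. Eno2, the neuronal enolase, had -0.07 ± 0.02 and Eno4 had 0.13 ± 0.07.

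Lactate dehydrogenase was split in the same way. Ldhb, the heart-type subunit that favours the use of lactate, had -0.59, -0.29 and -0.66 (-0.51 ± 0.20, adjusted p = 0.0956), below every array value of Ldha. The testis form Ldhc averaged -0.21 ± 0.29 and Ldhd, which acts on D-lactate, -0.16 ± 0.05. Aldoc, the brain aldolase, had -1.26, -0.02 and -0.79 (-0.69 ± 0.63, adjusted p = 0.159), with array 2 the highest as for Aldoa.

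At the remaining steps, Gapdhs, the sperm form of Gapdh, had 0.66, 0.68 and 0.32 (0.55 ± 0.20, adjusted p = 0.0881), and Pgk2, the testis form of Pgk1, averaged 0.16 ± 0.02. Pfkm, the muscle phosphofructokinase, averaged 0.30 ± 0.33 and the platelet form Pfkp -0.03 ± 0.22. Among hexokinases Hk1 averaged 0.04 ± 0.26, Hk3 0.38 ± 0.16 and Hkdc1 -0.15 ± 0.11, so that Hk3 was the hexokinase with all arrays above wild type.

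**Figure D3:**
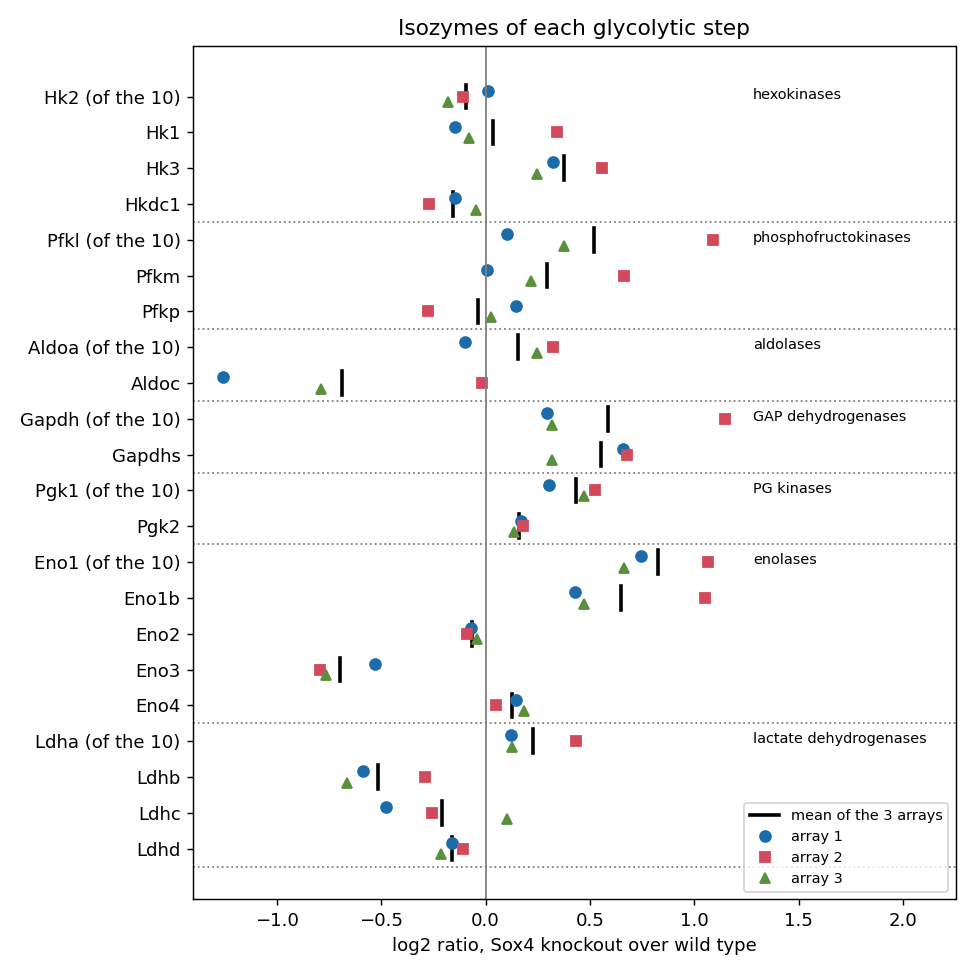
Log2 ratio of Sox4 knockout over wild type (x axis) for 7 of the 8 enzyme genes and their measured isozymes, grouped by reaction (rows), with 1 symbol for each array and a bar at the mean. Eno3 and Ldhb lie below 0 on every array, opposite to Eno1 and Ldha.

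Outside these steps, 16 other glycolytic enzymes and regulators had a median of 0.04, and none passed the adjusted threshold. Of these, 6 were above 0 on all arrays, against 23.2% of all genes, and 4 below, against 27.3%. Pkm, the pyruvate kinase of most non-liver tissues, had 0.39, 0.78 and 0.32 (0.49 ± 0.25, adjusted p = 0.112), with array 2 the highest as for Gapdh. Pfkfb2, which makes and removes the phosphofructokinase activator fructose 2,6-bisphosphate, had a mean of -0.45 ± 0.09 (adjusted p = 0.0956). Pgm1, a phosphoglucomutase, averaged -0.35 ± 0.13 (adjusted p = 0.143). Among 8 transporters of glucose and lactate (median 0.16, or -0.011 without array 2, none past the threshold), the insulin-regulated glucose transporter Slc2a4 of fat and muscle had -0.52 ± 0.16 (adjusted p = 0.0884). The lactate carriers Slc16a8 and Slc16a1 averaged 0.37 ± 0.05 and 0.19 ± 0.10.

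Genes that take pyruvate into mitochondria had a median of -0.08 over 14 genes, and those of gluconeogenesis, the reverse pathway, had -0.35 over 8. None passed the adjusted threshold. The E1 subunits of pyruvate dehydrogenase were on opposite sides, with the X-linked Pdha1 at 0.29 ± 0.05 and Pdhb at -0.31 ± 0.03, and the activating phosphatase Pdp1 had -0.40 ± 0.29. Fbp1, the fructose bisphosphatase that opposes phosphofructokinase, had -0.87, -0.61 and -0.52 (-0.67 ± 0.18, adjusted p = 0.0715). The glucose 6-phosphate transporter Slc37a4 averaged -0.52 ± 0.25 (adjusted p = 0.104). Pck2, the mitochondrial PEP carboxykinase, was on the other side, with 0.67, 0.70 and 1.09 (0.82 ± 0.24, adjusted p = 0.0654).

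The list of other hypoxia target genes had a median below 0 on every array, as Bnip3 had. Of its 23 measured genes, 9 were below 0 on all arrays, against 27.3% of all genes, and 3 above, against 23.2%. The array medians were -0.27, -0.12 and -0.06, and no gene of the list passed the adjusted threshold. At an unadjusted p under 0.05 there were 6 lower and 2 higher, against 14.3% lower and 12.0% higher among all genes. Higd1a, a mitochondrial protein induced by hypoxia, had -0.72, -0.37 and -0.90 (-0.66 ± 0.27, adjusted p = 0.0822). The secreted glycoprotein gene Stc2 averaged -0.49 ± 0.16 (adjusted p = 0.0935), and Mxi1, a repressor that opposes Myc, 0.40 ± 0.10 (adjusted p = 0.114).

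The oxygen sensing list includes the HIF subunits and the parts of the ligase that marks them for degradation. Of its 14 genes, 7 were below 0 on all arrays, against 27.3% of all genes, and 1 above, against 23.2%. Its array medians were -0.22, -0.13 and -0.14, and none passed the adjusted threshold. Arnt2, a partner subunit of HIF proteins, had -0.76, -0.98 and -0.55 (-0.77 ± 0.22, adjusted p = 0.0669). Eloc and Vhl, both parts of the ligase, averaged -0.47 ± 0.09 (adjusted p = 0.0897) and -0.32 ± 0.19 (adjusted p = 0.187).

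Around Vegfa, the list of other VEGF ligands and receptors held 9 genes, and none passed the adjusted threshold. Of these, 3 were above 0 on all arrays, against 23.2% of all genes, and 3 below, against 27.3%. The list's median was -0.05, which turned to 0.032 without array 1 and to 0.0065 without array 3. Vegfb, a ligand of the receptor Flt1, had 0.48, 0.85 and 0.42 (0.58 ± 0.24, adjusted p = 0.0881). The co-receptor Nrp1 averaged 0.56 ± 0.12 (adjusted p = 0.0799) and Flt4, the receptor of lymphatic vessels, 0.53 ± 0.21 (adjusted p = 0.0931). Of 8 endothelial markers, none past the threshold and with a median of -0.08, 2 were below 0 on all arrays (Erg at -0.58 ± 0.25 and Egfl7 at -0.50 ± 0.39) and none above on all, while the means of the list ran up to 0.36.

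Around Bnip3, 11 mitophagy genes had a median of -0.14, and none passed the adjusted threshold. Below 0 on all arrays were 5 of them, against 27.3% of all genes, and above were 5, against 23.2%. At an unadjusted p under 0.05 there were 4 lower and 2 higher, against 14.3% lower and 12.0% higher among all genes. The Bnip3 paralog Bnip3l, a mitophagy receptor needed to clear mitochondria from maturing red cells, had -0.59, -0.34 and -0.20 (-0.38 ± 0.20, adjusted p = 0.147). It had the same sign on every array and was chosen after its values were seen. Bcl2l13, another receptor of this kind, averaged -0.64 ± 0.29 (adjusted p = 0.0875). Gabarapl1, which links receptors to the autophagosome, averaged -0.55 ± 0.17 (adjusted p = 0.0863). Pink1, the kinase that starts the other mitophagy route, averaged -0.46 ± 0.22 (adjusted p = 0.119). The 2 higher genes were Fkbp8, with 0.39, 1.02 and 0.23 (0.55 ± 0.42, adjusted p = 0.143), and Sqstm1 (0.37 ± 0.28, adjusted p = 0.186).

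Most fat and blood markers were below wild type beside Bnip3, where 27.3% of all genes were below 0 on all arrays. Of 9 fat markers 7 were below 0 on all arrays (list medians of -2.07, -2.11 and -1.94), among them Adipoq at -4.68 ± 0.41 (adjusted p = 0.00209) and Cfd at -5.95 ± 0.65 (adjusted p = 0.00235), which both fell, although without array 3 their adjusted p was 0.0650 and 0.0763. Of 6 red cell markers 4 were below 0 on all arrays (list medians of -1.43, -1.14 and -0.76), and the haemoglobin genes Hbb-bt (-1.59 ± 0.39, adjusted p = 0.0494) and Hbb-bs (-1.23 ± 0.19, adjusted p = 0.0461) fell. Without array 2 these had an adjusted p of 0.0866 and 0.0577, and without array 1 or 3 it was between 0.193 and 0.234. The red cell marker Epb42 went the other way, above 0 on all arrays (0.73 ± 0.29, adjusted p = 0.0773). Slc4a1 of that list averaged -0.09 ± 0.11, with ratios of both signs. Of the fat list, Lep averaged -0.12 ± 0.29 and Lipe 0.21 ± 0.20, also with both signs. The part of fat or blood in the ratios of Bnip3 and Bnip3l was not tested.

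**Figure D4:**
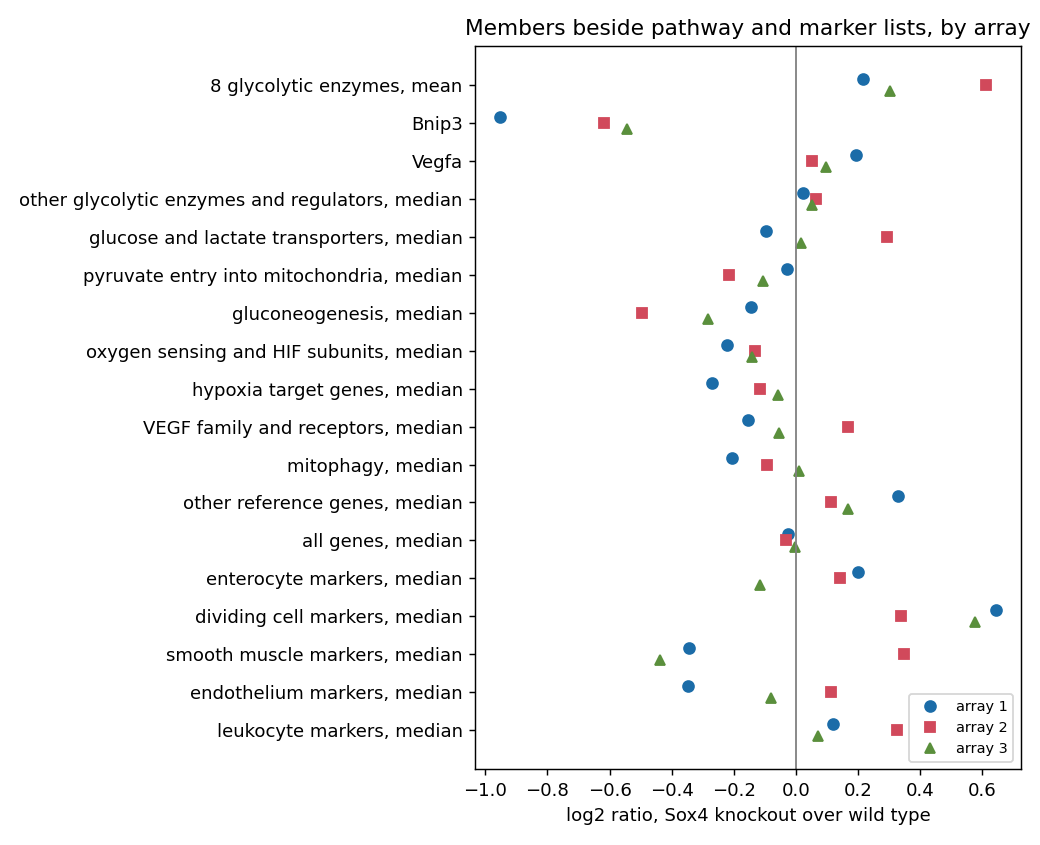
Log2 ratio of Sox4 knockout over wild type (x axis) on each array for the mean of the 8 enzymes, for Bnip3 and Vegfa, and for the median of each pathway and marker list and of all genes (rows), with 1 symbol for each array. The enzyme mean is 0.61 on array 2, and the medians of the hypoxia target and oxygen sensing lists lie below 0 on every array.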

How the data were processed

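RNA of whole proximal jejunum was measured on 3 two-colour arrays, each with a Sox4 knockout mouse in Cy5 against wild type in Cy3, per the labels. The deposited values cover 62976 features and were read here as log2 ratios. The authors' background correction, normalization, log base and direction were not given in the sources used here. Medians over features were 0.007, 0.003 and 0.011. Ratios of different arrays correlated between 0.44 and 0.51 over all features.

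Of the features, 31465 had 1 gene symbol in the platform annotation, updated by accession through a RefSeq table (GRCm38.p6), and 31511 were unnamed here. Features of a gene were averaged on each array. A moderated test of each mean ratio against 0 was run in limma 3.58.1 under R 4.3.3 (lmFit, eBayes, 2 residual and 3.51 prior degrees of freedom, two-sided), with Benjamini-Hochberg adjustment over 20738 genes. Variation among wild-type mice does not enter the test. A dye effect or a difference in sex cannot be told apart from genotype. Nothing says that the RNA samples were extracted separately beyond the mouse numbers in the labels. No intensities were used here, so dim features stayed in, and with 3 arrays the precision is limited. The script was checked on simulated data.

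The 10 genes and all lists were chosen with earlier results of these data known. Named genes are the 10, their isozymes, Sox4, the sex-linked genes, the 3 genes with the smallest unadjusted p in each other pathway list with any past the threshold, and 2 in each marker list, of which some are not mentioned. Bnip3l, Fkbp8, Sqstm1, Epb42, Slc4a1, Lep, Lipe and the genes of the other observations were named after their values were seen. Alternatives were the median of features, curated accessions, the annotation's own symbols, 3 scalings, robust eBayes, single features and leaving out each array. Figures were made with Python 3.11.15 and matplotlib 3.10.9.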

Additional observations from a re-analysis of the deposited data

How the results depend on the processing

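None of the 10 genes passed the adjusted threshold under any alternative tried. With the median of features, only curated RefSeq accessions, the annotation's own symbols, arrays centred, scaled or quantile normalized, or robust eBayes, Eno1 had means of 0.82 to 0.84 (adjusted p between 0.0554 and 0.0640) and Bnip3 of -0.71 to -0.69 (adjusted p between 0.0658 and 0.0797). Leaving out each array in turn gave 0.70 to 0.90 for Eno1, -0.78 to -0.58 for Bnip3, 0.31 to 0.73 for Gapdh, 0.24 to 0.73 for Pfkl, 0.07 to 0.28 for Aldoa, 0.12 to 0.28 for Ldha and -0.14 to -0.05 for Hk2. The enzymes minus Bnip3 and Vegfa then ran between 0.56 and 0.75. Ldha feature 1261 fitted on its own was on the other side of wild type (-0.12, adjusted p = 0.705), and the cause was not tested.

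Some list values near 0 turned sign, with a list's median taken over the mean ratios of its genes. Hk1 had -0.016 with the median of features and -0.11 to 0.13 when an array was left out, and Pfkp then had -0.13 to 0.085, each with its turn of sign without array 2. The VEGF list's median (-0.051) ran between -0.19 and 0.032 when an array was left out, above 0 without array 1 and without array 3, and the transporter median (0.16) between -0.011 and 0.19, below 0 without array 2. The mitophagy median (-0.14) was -0.016 without array 1, and that of the other glycolytic genes (0.040) was 0.092. The cause was not tested. Over all genes 68 were called, with 135 on curated accessions, where fewer genes were tested, 10 without array 1, 66 without array 2 and 4 without array 3. Hbb-bs and Hbb-bt lost their call with arrays scaled and whichever array was left out, Xist and Uty without array 1 or 3, and Adipoq and Cfd without array 3. No paired analysis was possible because the arrays form 1 group and each already holds both genotypes. Other background corrections, a filter on dim features and slide as a block were not run, since no intensities were used here and the array names in the labels give 1 slide.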

Other observations

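The 3 genes Pdk4, Pck1 and G6pc are known to be induced in fasting and were chosen after their values were seen. Their order across the arrays, opposite to that of most of the 8 enzymes, was thus known when they were chosen. Pdk4, the kinase that turns off pyruvate dehydrogenase, had ratios of 0.71, -2.11 and -0.48 on arrays 1, 2 and 3. Pck1, the cytosolic PEP carboxykinase of gluconeogenesis, had 0.23, -1.57 and -0.75, and G6pc, the phosphatase that releases glucose, had 0.71, -0.82 and -0.17. In all 3 of them array 1 was the highest and array 2 the lowest, whereas array 2 was the highest for 7 of the 8 enzymes. Their means were -0.62 ± 1.42, -0.70 ± 0.90 and -0.09 ± 0.77 (limma adjusted p = 0.461, 0.243 and 0.855), with an SD over arrays above the size of the mean in each. The other genes of the gluconeogenesis list had other orders. Of the list of pyruvate entry into mitochondria, Pdk3, Pdhx and Mpc2 shared the order of these 3 genes and the rest did not. No test of the pattern was made.

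Egln3, an oxygen-sensing hydroxylase that is itself a hypoxia target, had -1.20, 0.50 and -0.92, and Ankrd37, another hypoxia target, had -1.24, -0.21 and -0.71. Both were highest on array 2 and were chosen after their values were seen. Array 2 was the highest for 7 of 14 oxygen sensing genes and 9 of 23 hypoxia targets, against 33.9% of all genes.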
